A study of Mus musculus with 20 samples.

Results

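The genes described here encode members of the Mmp, Adam and Adamts families of extracellular proteases, not all of them active enzymes, the protease-like Adamtsl proteins, the Timp inhibitors of these proteases, and the lysyl oxidases. They were chosen by name: every gene whose symbol is Mmp, Adam, Adamts, Adamtsl or Timp followed by a number, together with Lox and Loxl1 to Loxl4, without Mmp12 and without names that mark pseudogenes. This gave 89 of the 56805 genes counted, of which 67 had enough reads to be tested (16 of 22 Mmp, 19 of 34 Adam, 18 of 19 Adamts, 5 of 5 Adamtsl, 4 of 4 Timp and 5 of 5 lysyl oxidase genes).

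Matrix metalloproteases (Mmp) cut collagens and other matrix proteins, Adam proteins are mostly membrane-bound and some of them release the outer parts of receptors and cytokines from the cell surface, and Adamts proteases are secreted and cut proteoglycans or trim procollagen. Timp proteins occupy the active site of these metalloproteases, and lysyl oxidases join collagen and elastin molecules by covalent cross-links. In white adipose tissue, fat cells sit in a mesh of collagen that has to be cut and rebuilt as the cells enlarge.

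White adipose tissue was taken from 20 mice, 5 in each of 4 groups, after 10 weeks on chow or a high-fat diet with either water or Tibetan tea to drink, the tea being a water extract. Libraries are named by group and replicate number. The groups are called chow water, chow tea, high-fat water and high-fat tea, and no agent or allele other than diet and drink is named. The labels name no strain, sex, age or fat depot. The p-values measure the spread between separately sequenced mice.

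Libraries held 53047057 to 93314761 reads in genes. Positions of genes are on GRCm39. Levels are reads scaled to library size (CPM) with library sizes adjusted by trimmed means, and levels compared between genes are CPM per kilobase of exon (RPKM). Summed over 9 adipocyte markers, none of them at 0, libraries ranged from 12770 to 67620 CPM. Some libraries also held transcripts of other organs. Chow water 1 had 595300 CPM over the pancreas acinus list, against at most 68.94 elsewhere. The adjusted size of that library was 30697606, against 53047057 reads in genes, so its CPM are not shares of its reads. High-fat tea 4 had 27150 CPM over the kidney list, and high-fat water 4 had 34080 over the epididymis and seminal vesicle list and 13030 over the adrenal cortex list. These 3 libraries were the lowest of their group for 38, 43 and 40 of the 67 tested genes, in that order, as the heat map shows. In 6 more libraries the skeletal muscle list summed to 4583 to 36470 CPM, and 1 of these, chow water 2, also had 2047 over the kidney list. Lower sums were seen outside these 9 libraries, such as 641 CPM over the adrenal cortex list in high-fat tea 2. Chow tea 3 had 728.7 CPM over the kidney list. In such bulk tissue, fewer cells of a type and less RNA per cell cannot be told apart.

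**Figure D1:**
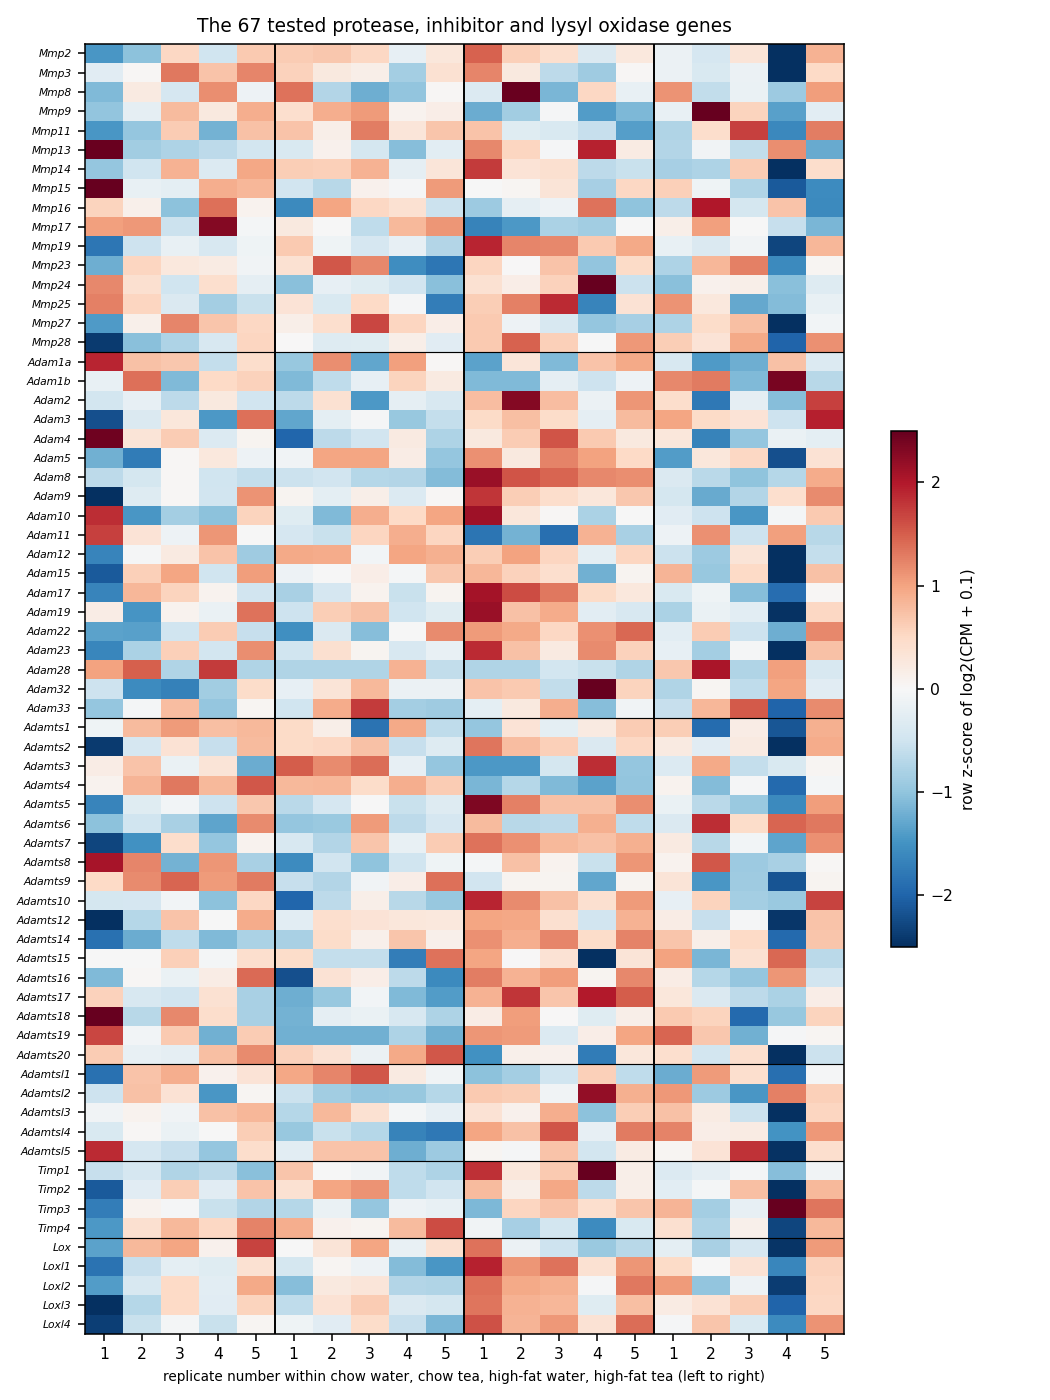
Rows are the 67 tested genes, grouped as Mmp, Adam, Adamts, Adamtsl, Timp and lysyl oxidases, columns are the 20 libraries (replicates 1 to 5 of chow water, chow tea, high-fat water and high-fat tea), and colour is the z-score within a row of log2(CPM + 0.1), limited at 2.5 in either direction. Chow water 1 and high-fat tea 4 appear as largely blue columns, being lowest of their group for 38 and 43 genes, and Adam8 is red in all 5 high-fat water libraries.

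In the comparison of tea with water under the high-fat diet 4 genes were called, namely Adam8, Adam17, Adamts17 and Timp1. Only the call of Adam8 held in every fit that left out 1 library. The 250 bases before their transcription start are printed so that the start regions of genes that moved the same way can be read side by side. They come from RefSeq on GRCm38.p6, a different build from the GRCm39 positions of the count tables. They lie at chr7:139992563-139992812 (minus strand), chr12:21373633-21373882 (minus strand), chr7:66839485-66839734 (plus strand) and chrX:20869916-20870165 (plus strand). Sequences read 5′ to 3′ along the gene. Capitals mark GGGCGG (the GC box), CCAAT and GGAAG (the core bound by ETS factors), on either strand, and no marked stretches overlap.
Adam8: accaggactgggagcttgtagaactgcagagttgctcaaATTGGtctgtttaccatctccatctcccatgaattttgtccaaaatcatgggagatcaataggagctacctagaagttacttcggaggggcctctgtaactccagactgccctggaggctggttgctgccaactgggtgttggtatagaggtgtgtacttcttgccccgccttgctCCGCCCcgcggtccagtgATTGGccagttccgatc
Adam17: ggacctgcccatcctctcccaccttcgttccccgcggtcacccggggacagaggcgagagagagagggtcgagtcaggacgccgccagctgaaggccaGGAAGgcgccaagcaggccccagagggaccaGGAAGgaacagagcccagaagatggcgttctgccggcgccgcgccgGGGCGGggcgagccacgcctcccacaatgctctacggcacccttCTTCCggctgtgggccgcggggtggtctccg
Adamts17: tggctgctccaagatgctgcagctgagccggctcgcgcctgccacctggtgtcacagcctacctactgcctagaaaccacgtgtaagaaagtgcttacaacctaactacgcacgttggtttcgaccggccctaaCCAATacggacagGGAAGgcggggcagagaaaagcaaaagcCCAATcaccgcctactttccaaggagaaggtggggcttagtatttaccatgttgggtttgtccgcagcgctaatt
Timp1: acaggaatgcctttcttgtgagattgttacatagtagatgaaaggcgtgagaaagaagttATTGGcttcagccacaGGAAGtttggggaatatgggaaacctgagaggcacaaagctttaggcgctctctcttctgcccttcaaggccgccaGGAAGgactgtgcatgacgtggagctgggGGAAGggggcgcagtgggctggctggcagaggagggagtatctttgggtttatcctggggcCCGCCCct

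The GC box letters were in the windows of Adam8, Adam17 and Timp1, the CCAAT letters in those of Adam8, Adamts17 and Timp1, and GGAAG in those of Adam17, Adamts17 and Timp1. Over all 32851 promoter windows of this length in the table, 32.7% held the GC box, 33.8% CCAAT and 64.1% GGAAG, against 43.1%, 31% and 65.5% of 58 windows that belong to 54 of the 89 genes. The Adam17 window was the richest in G and C of the 4 (70.4%), while the others had 52.8% (Adam8) and 54.4% (Adamts17 and Timp1), near the median of 52.4% over all windows. Neither the AP-1 letters TGANTCA nor the TATA letters TATAAA occur in the 4 windows. These matches describe letters only.

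Among the 67 tested genes, the inhibitors Timp2 and Timp3 were the most abundant per length. Mean RPKM over all 20 libraries was 128.8 for Timp2 and 69.3 for Timp3, ahead of Adam9 (33.8), Lox (25.8), Mmp2 (25.4), Adam10 (22.4) and Adam15 (22.3). Timp4 followed at 20.8 and Adamts1 at 20.3. The ranges over libraries overlapped between neighbours in this order throughout, as the plot of levels shows. Timp1, by contrast, had a mean of 2.39 RPKM, and Adam8 of 5.05 RPKM, both with wide ranges. Of the called genes described below, Adam32 and Adamts17 were among the scarcest, at 0.0653 and 0.0936 RPKM.

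**Figure D2:**
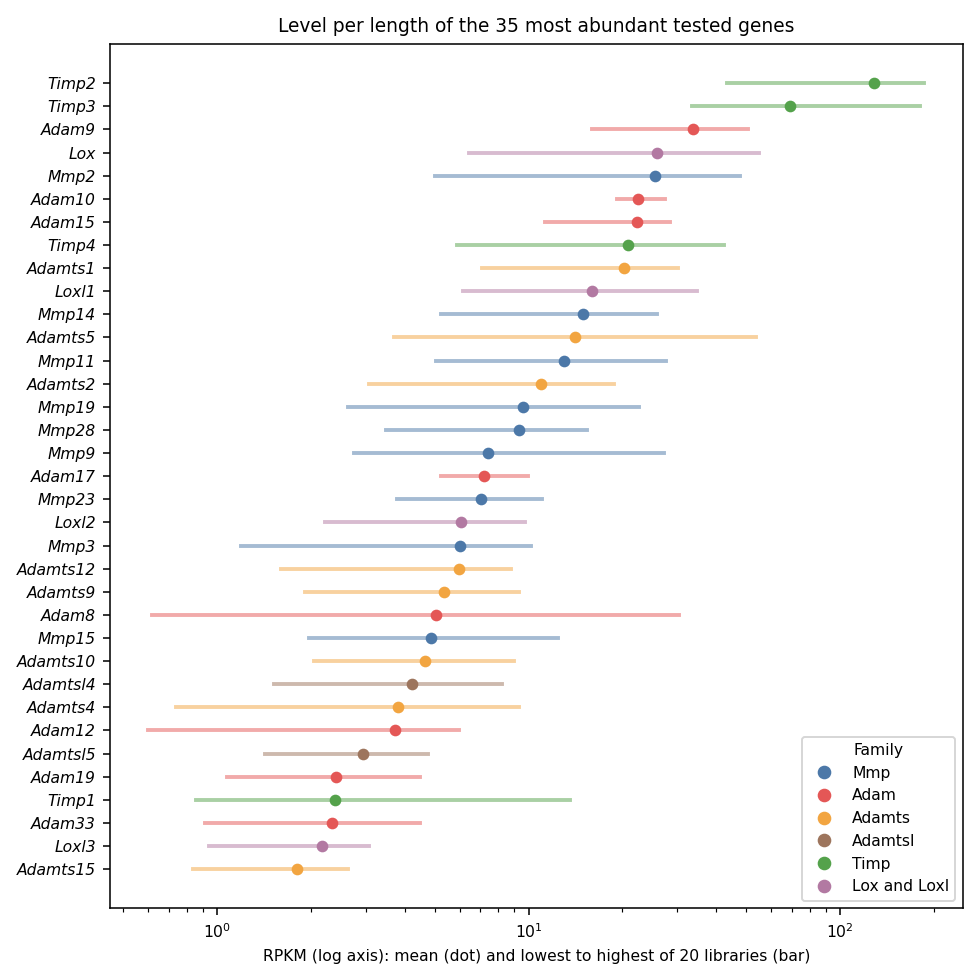
The 35 most abundant tested genes in order of mean RPKM (log axis), with a dot at the mean of 20 libraries, a bar from the lowest to the highest library, and colour for the family. Timp2 (128.8) and Timp3 (69.3) lead, and the bar of Adam8 runs from 0.617 to 30.4 RPKM.

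The first question is what the high-fat diet does in mice that drink water. Against chow water, 13 of 67 genes were called at an adjusted p below 0.05 (19.4%), beside 15.2% of all 21306 genes tested. Of these, 10 were higher (14.9%, against 8.06% of all genes) and 3 lower (4.48%, against 7.11%), and the median log2 change was 0.24, beside -0.00247 over all genes. The share called was near that of all genes. In 10 of the 67 genes (14.9%) chow water and high-fat water had no overlap of libraries, beside 12.9% of all genes. Without the 3 libraries richest in other-organ transcripts 18 genes of the set were called, beside 4546 of 21409 over all genes. Without all 9 such libraries 6 of the set were called, beside 2052 of 22311 over all genes. These 6 were Adam8, Adamts4, Adamts14, Mmp19 and Timp1, and Adam17, which was not called for diet with all 20 libraries. The calls of Adam32, Adamts5, Adamts7, Adamts9, Adamts17, Loxl1, Loxl4 and Mmp17 ended in that fit.

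Among the metalloproteases of the Mmp family, Mmp19 rose and Mmp17 fell. Mmp19 (chromosome 10, 128626779 to 128636693, plus strand), a secreted enzyme that cuts basement membrane proteins, stood at 11.9, 23.2, 27.4, 24.5 and 28.6 CPM in chow water replicates 1 to 5 and at 79.7, 56.4, 55.7, 42.3 and 48.9 CPM in high-fat water. The lowest high-fat library lay above the highest chow library, and the gene rose 2.44-fold (log2 1.29, SE 0.32, adjusted p = 0.0134). Its exons share 28.3% of their bases with Gm47093 and Tmem198b on the opposite strand, whose reads cannot be told apart from its own. Mmp17 (chromosome 5, 129661233 to 129688163, plus strand), an enzyme held at the cell surface by a lipid anchor, stood at 7.13, 7.30, 4.04, 11.3 and 4.84 CPM in chow water and 2.67, 2.91, 3.67, 3.59 and 4.89 CPM in high-fat water. These groups overlapped at 1 high-fat library, and the gene fell by 1.95-fold (log2 -0.96, SE 0.28, adjusted p = 0.0274). That call ended without chow water 2 or 4 or high-fat water 1 or 2 (log2 -1.11 to -0.72, adjusted p up to 0.0846).

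The collagen and gelatin cutting enzymes usually studied in adipose tissue were not called. Mmp2, a gelatinase, had 71.2 ± 31.7 CPM in chow water and 103 ± 35.6 in high-fat water (mean ± SD, n = 5; log2 0.54, adjusted p = 0.361). Mmp14, the membrane-bound collagenase that activates pro-Mmp2, had 87.6 ± 26.1 and 96.6 ± 34.9 CPM (log2 0.14, adjusted p = 0.773). Mmp9, the other gelatinase, had 25.8 ± 10.4 and 13.4 ± 4.76 CPM (log2 -0.95, adjusted p = 0.177). In all 3 the groups overlapped, and 25.5% of the exonic bases of Mmp2 are shared with Gm45472 on the opposite strand. Over the 16 tested Mmp genes, 1 was called higher and 1 lower, and the median log2 change was 0.0313. Mmp13, a collagenase named after its values were seen, was highest in chow water 1 (6.74 CPM, against 0.0577 to 0.151 in the rest of that group), so its log2 change was -0.08 with all libraries (adjusted p = 0.974) and 3.70 without that one (adjusted p = 0.0428).

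Of the 19 tested Adam genes 2 rose, none fell, and the median log2 change was 0.30. Adam8 (chromosome 7, 139558845 to 139572475, minus strand), a cell-surface protease known from leukocytes, was at 4.79, 6.20, 10.9, 5.82 and 5.13 CPM in chow water and at 141, 70.1, 61.3, 44.7 and 43.1 CPM in high-fat water. Every high-fat library exceeded every chow library by a wide margin. The gene rose 10.9-fold (log2 3.45, SE 0.58, adjusted p = 0.00128), the largest rise among the called genes, and the call held in each of the 10 fits that left out 1 library. High-fat water 1 stood above the other 4 and also had the highest sum over 10 macrophage markers (2714 CPM; range 1107 to 2714 in high-fat water and 511 to 1757 in chow water), with no marker at 0 in either group. Of these 10 markers 3 rose and 2 fell. The part of macrophage content in the rise was not tested.

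Adam32 (chromosome 8, 25326156 to 25438820, minus strand), a family member known from testis, was close to the limit of detection, with 4 to 18 reads per chow water library and 8 to 69 per high-fat water library. Its levels were 0.0513 to 0.226 and 0.122 to 0.658 CPM, which overlap (log2 1.43, SE 0.46, adjusted p = 0.0457). That call lasted in only 2 of the 10 fits without 1 library, those without chow water 5 or high-fat water 3 (log2 0.92 to 1.88, adjusted p up to 0.162 over the 10). High-fat water 4, with transcripts of epididymis and seminal vesicle, was the highest at 0.658 CPM, and without the 3 libraries richest in other-organ transcripts the log2 change was 0.98 (adjusted p = 0.139). The abundant sheddases were not called. Adam10, which cuts Notch receptors, was at 94.7 to 131 CPM in chow water and 101 to 135 CPM in high-fat water (log2 0.07, adjusted p = 0.687). Adam17, which releases tumour necrosis factor from its membrane precursor, was at 50.3 ± 7.72 and 61.8 ± 7.69 CPM (mean ± SD, n = 5; log2 0.30, adjusted p = 0.0905).

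The Adamts family held 6 of the 13 called genes, 4 higher and 2 lower of 18 tested, with a median log2 change of 0.21. The 2 aggrecan-cutting enzymes Adamts5 and Adamts4 were called in opposite directions. Adamts5 (chromosome 16, 85653061 to 85698716, minus strand) was at 39.8, 98.7, 115, 85.4 and 189.5 CPM in chow water and 579, 282, 199, 197 and 263 CPM in high-fat water, with no overlap. It rose 2.87-fold (log2 1.52, SE 0.44, adjusted p = 0.0287). Adamts4 (chromosome 1, 171077990 to 171088206, plus strand) was at 15.6, 26.9, 38.1, 26.1 and 44.9 CPM in chow water and 6.39, 8.76, 6.61, 5.56 and 7.18 CPM in high-fat water. Each chow library was above each high-fat library, and the gene fell by 4.4-fold (log2 -2.14, SE 0.34, adjusted p = 0.000869), the lowest adjusted p of the 67 genes. The fall of Adamts4 was called in all 10 fits without 1 library (log2 -2.35 to -1.95), whereas the rise of Adamts5 was lost without chow water 1, 2 or 4 or high-fat water 1 (log2 1.15 to 1.84, adjusted p up to 0.098).

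Per length, Adamts5 went from 9.80 ± 5.06 to 28.1 ± 14.7 RPKM between chow water and high-fat water, and Adamts4 from 6.31 ± 2.36 to 1.43 ± 0.247 RPKM (mean ± SD, n = 5). Adamts1, which also cuts versican and aggrecan, was at 94.6 to 159 CPM in chow water and 64.0 to 132 in high-fat water, which overlap (log2 -0.41, adjusted p = 0.477). Adamts9 (chromosome 6, 92749680 to 92920473, minus strand), another versican-cutting enzyme, was at 91.5, 124, 139.8, 117 and 130.4 CPM in chow water and 59.9, 76.4, 76.2, 41.9 and 75.8 CPM in high-fat water. The groups did not overlap, and Adamts9 fell by 1.83-fold (log2 -0.87, SE 0.29, adjusted p = 0.0481). Its adjusted p sat so close to the threshold that the call lasted only in the fit without chow water 1 among the 10 (log2 -0.999 to -0.76, adjusted p up to 0.103).

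Adamts14 (chromosome 10, 61032891 to 61109217, minus strand), which removes the amino-terminal propeptide of procollagen, was at 1.96, 2.57, 3.36, 2.72 and 3.14 CPM in chow water and 7.16, 6.45, 7.38, 5.33 and 7.43 CPM in high-fat water. All high-fat libraries lay above all chow libraries, the gene rose 2.45-fold (log2 1.29, SE 0.26, adjusted p = 0.00405), and the call held in the 10 fits without 1 library. Adamts17 (chromosome 7, 66489483 to 66802919, plus strand), a secreted protease linked to fibrillin microfibrils, was at 0.847, 0.346, 0.320, 0.712 and 0.226 CPM in chow water and 1.09, 2.31, 0.933, 2.69 and 1.86 CPM in high-fat water. It rose 3.65-fold from a low level (log2 1.87, SE 0.48, adjusted p = 0.0151), without overlap and in all 10 such fits. The Adamts17 call ended without the 9 libraries with other-organ transcripts (adjusted p = 0.1). Adamts7 (chromosome 9, 90045122 to 90090124, plus strand), which cuts cartilage oligomeric matrix protein, was at 2.74 to 8.25 CPM in chow water and 9.25 to 11.9 CPM in high-fat water (log2 0.95, SE 0.29, adjusted p = 0.035). The Adamts7 call lasted in 3 of the 10 fits, those without chow water 3 or 5 or high-fat water 4 (log2 0.74 to 1.16, adjusted p up to 0.0908). None of the 5 Adamtsl genes was called, and their median log2 change was -0.03.

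**Figure D3:**
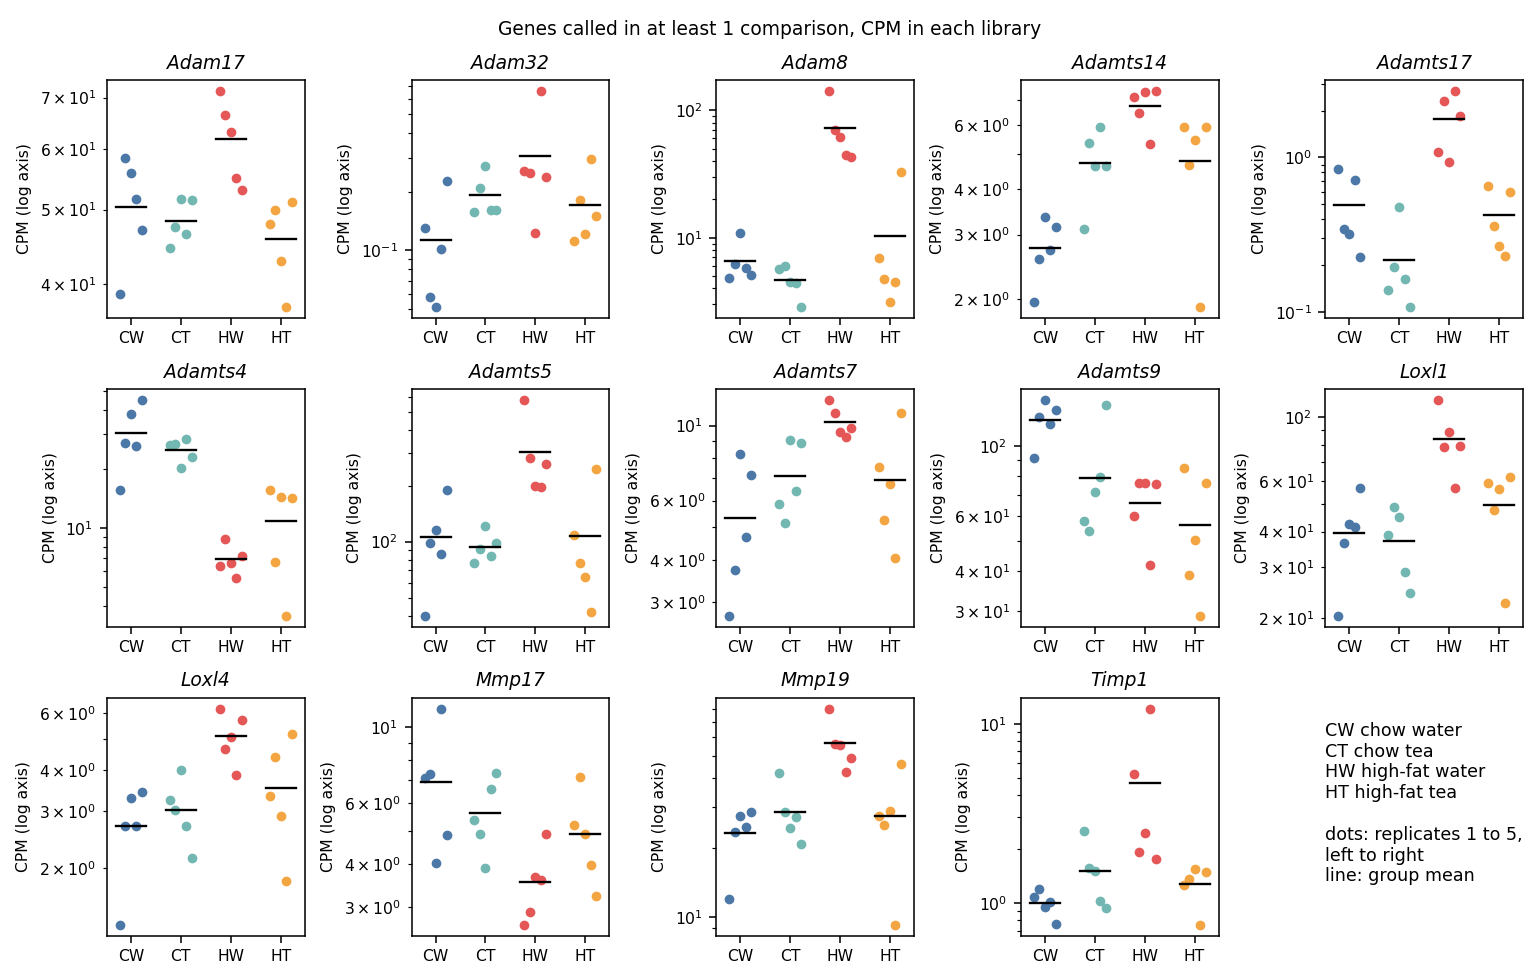
CPM (log axis, each gene on its own scale) of the 14 genes called in at least 1 comparison, with a dot for each library (replicates 1 to 5 from left to right) and a line at the group mean, for chow water (CW), chow tea (CT), high-fat water (HW) and high-fat tea (HT). Adam8 lies at 43.1 to 141 CPM in high-fat water and at 2.86 to 32.6 CPM in all other groups, and every Adamts4 library of the high-fat groups (3.55 to 15.5 CPM) lies below every chow water library (15.6 to 44.9 CPM).

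Among the inhibitors, Timp1 rose and the other 3 were not called. Timp1 (chromosome X, 20736405 to 20740974, plus strand) was at 1.07, 1.197, 0.948, 1.02 and 0.766 CPM in chow water and 5.24, 1.92, 2.45, 12.1 and 1.76 CPM in high-fat water. Although the groups did not overlap, high-fat water replicates 1 and 4 carried most of the difference. The gene rose 4.69-fold (log2 2.23, SE 0.46, adjusted p = 0.00496), and without replicate 4, the library with epididymis, seminal vesicle and adrenal transcripts, the log2 change was 1.49 and still called. Timp2, which also takes part in the activation of pro-Mmp2, was at 228 to 677 CPM in chow water and 399 to 745 in high-fat water (log2 0.24, adjusted p = 0.659). Timp3, the inhibitor that stays bound to the matrix and also blocks Adam17 and the aggrecan-cutting Adamts enzymes, was at 273 to 540.6 and 342 to 683 CPM (log2 0.46, adjusted p = 0.311). Its exons share 21.3% of their bases with Syn3 on the opposite strand. Timp4, a form known from heart and fat, was at 53.0 to 206 and 49.6 to 106 CPM (log2 -0.79, adjusted p = 0.16), and its log2 change was -1.04 (adjusted p = 0.0498) without chow water 1. Of all Timp transcripts per length, Timp1 made up 0.663% ± 0.348 in chow water and 2.5% ± 2.67 in high-fat water (mean ± SD, n = 5), while Timp4 made up 11.9% ± 1.91 and 5.96% ± 1.31. The Timp4 shares did not overlap between these groups (9.22% to 14.3% and 4.40% to 7.77%).

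Loxl1 and Loxl4 rose, and Lox, Loxl2 and Loxl3 were not called. Loxl1 (chromosome 9, 58195021 to 58220469, minus strand), the lysyl oxidase known for elastic fibres, was at 20.4, 36.5, 42.6, 41.6 and 56.8 CPM in chow water and 115, 78.9, 89.2, 56.8 and 79.3 CPM in high-fat water. High-fat water 4 met chow water 5 at 56.8 CPM, and all other high-fat libraries were higher (2.12-fold, log2 1.08, SE 0.29, adjusted p = 0.018). The call was lost without high-fat water 1 (log2 0.94, adjusted p = 0.0563). Loxl4 (chromosome 19, 42582421 to 42601252, minus strand) was at 1.34, 2.70, 3.28, 2.69 and 3.41 CPM in chow water and 6.17, 4.65, 5.07, 3.85 and 5.71 CPM in high-fat water. Here the groups did not overlap (1.89-fold, log2 0.92, SE 0.28, adjusted p = 0.0335), yet the call lasted only without chow water 3 or 5 or high-fat water 4 among the 10 fits (log2 0.71 to 1.02, adjusted p up to 0.084). Without the 9 libraries with other-organ transcripts neither Loxl1 nor Loxl4 was called (adjusted p = 0.0649 and 0.119). Loxl2, which acts on collagen IV, had 30.6 ± 10.4 and 44.5 ± 8.93 CPM (log2 0.54, adjusted p = 0.243), and Loxl3 had 8.73 ± 2.85 and 11.9 ± 1.91 CPM (log2 0.45, adjusted p = 0.205).

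Lox itself, the best known collagen cross-linking enzyme, had a negative value. It was at 54.8, 167, 182, 116 and 263 CPM in chow water and 223, 102, 83.9, 67.9 and 76.7 CPM in high-fat water (log2 -0.50, adjusted p = 0.465). The groups overlapped, with chow water 1 low and high-fat water 1 high. As a share of all lysyl oxidase transcripts per length, Lox made up 51.7%, 65.6%, 62.3%, 54.4% and 65.7% in chow water replicates 1 to 5 and 48.7%, 37.2%, 31.1%, 35.6% and 29.9% in high-fat water. Loxl1 made up 27.9%, 20.9%, 21.1%, 28.3% and 20.6% in chow water and 36.4%, 41.8%, 47.9%, 43.2% and 44.9% in high-fat water. Neither share overlapped between these groups, so that Lox led in all 5 chow water libraries and Loxl1 in 4 of 5 high-fat water libraries. These shares are a description, with no test. The summed level of the 5 genes did overlap, at 52.9 ± 22.5 RPKM in chow water and 60.6 ± 20.9 RPKM in high-fat water.

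**Figure D4:**
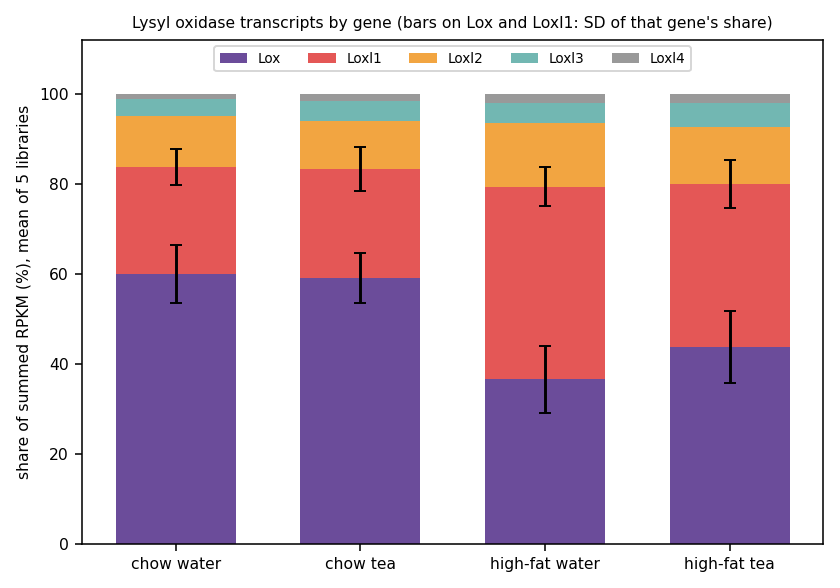
Share of each of the 5 lysyl oxidase genes in their summed RPKM (%, mean of 5 libraries), stacked for the 4 groups, with error bars (SD) for the shares of Lox and Loxl1. Lox takes 60.0% in chow water, 59.0% in chow tea, 36.5% in high-fat water and 43.7% in high-fat tea, and Loxl1 takes 23.8%, 24.3%, 42.8% and 36.2%.

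The second question is whether tea changes the tissue under the high-fat diet, from high-fat tea against high-fat water. It uses the same high-fat water libraries as the diet comparison. Of 67 genes 4 were called (5.97%), beside 4.36% of all genes tested, and all 4 were lower with tea (5.97%, against 2.3% of all genes called lower). The median log2 change was -0.30, beside 0.0187 over all genes, and 19 of 67 values were positive. The libraries of the groups did not overlap for 4 genes (5.97%, beside 5.55% of all genes), and 15 had an unadjusted p below 0.05 (22.4%, beside 23.6%). The number called was 9 with DESeq2 (2 higher, 7 lower) and 5 with limma voom (0 higher, 5 lower). It was 7 without the 3 libraries richest in other-organ transcripts (2 higher, 5 lower). It was 0 without all 9 such libraries, which left 2 libraries in each of these groups. Over all genes the counts, in the same order, were 2444 of 21306, 1119 of 21306, 1602 of 21409 and 13 of 22311. No gene of the set was called when only the 2 high-fat groups entered the fit, beside 21 of 19709 over all genes.

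Adam8 was at 6.87, 4.71, 3.13, 4.51 and 32.6 CPM in high-fat tea replicates 1 to 5, all below the 43.1 to 141 CPM of high-fat water. In 4 of these 5 libraries the level was within the range of the chow groups, and replicate 5 stood apart. Adam8 fell by 6.96-fold (log2 -2.80, SE 0.56, adjusted p = 0.014), and by 3.91 on the log2 scale without replicate 5. The call held in each of the 10 fits without 1 library and ended in the fit of these 2 groups alone (adjusted p = 0.0909) and without 9 libraries (adjusted p = 0.194). Replicate 5 also had the highest macrophage marker sum of the high-fat tea group, 1646 CPM in a range of 529 to 1646, against 1107 to 2714 in high-fat water. None of the 10 macrophage markers was called in this comparison, their median log2 change was -0.32, and the part of macrophage content in the fall of Adam8 was not tested.

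Adam17 was at 47.9, 49.97, 42.8, 37.3 and 51.2 CPM in high-fat tea and 71.4, 66.4, 63.1, 55.0 and 53.1 CPM in high-fat water. The groups just failed to overlap, and the fall was small (1.35-fold, log2 -0.43, SE 0.12, adjusted p = 0.0429). It was called in only 2 of the 10 fits without 1 library, those without high-fat water 5 or high-fat tea 5 (log2 -0.48 to -0.36, adjusted p up to 0.123). Adam10, its close relative, was at 94.7 to 117 CPM in high-fat tea, overlapping high-fat water (log2 -0.10, adjusted p = 0.613).

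Adamts17 was at 0.656, 0.362, 0.269, 0.232 and 0.598 CPM in high-fat tea, all below the 0.933 to 2.69 CPM of high-fat water. It fell by 4.19-fold (log2 -2.07, SE 0.48, adjusted p = 0.0243), and the call ended without high-fat water 2 or high-fat tea 2 or 3 (log2 -2.28 to -1.85, adjusted p up to 0.0644). In reads, the high-fat tea libraries held 15 to 48 of this gene and the high-fat water libraries 61 to 282. Timp1 was at 1.26, 1.36, 1.54, 0.756 and 1.49 CPM in high-fat tea, below every high-fat water library. It fell by 3.66-fold (log2 -1.87, SE 0.46, adjusted p = 0.0292). This rested in large part on high-fat water 4, without which the log2 change was -1.13 and no longer called, and the call also ended without high-fat water 1 or high-fat tea 1, 2, 3 or 4 (adjusted p up to 0.0773).

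Of the other 10 genes called for diet in water, none was called for tea by edgeR with all 20 libraries. Adamts5 was at 108, 77.1, 64.7, 41.6 and 245 CPM in high-fat tea, with replicate 5 reaching into the range of high-fat water (log2 -1.50, adjusted p = 0.0601). Without that library its log2 change was -2.06 (adjusted p = 0.00667). Mmp19 was at 27.4, 25.1, 28.8, 9.26 and 46.0 CPM in high-fat tea, where the same replicate overlapped the high-fat water libraries (log2 -1.05, adjusted p = 0.0651), and its log2 change was -1.32 (adjusted p = 0.0175) without it. Adamts14 had 4.77 ± 1.69 CPM (log2 -0.50, adjusted p = 0.246), Loxl1 49.5 ± 16.0 CPM (log2 -0.76, adjusted p = 0.118) and Loxl4 3.52 ± 1.30 CPM (log2 -0.53, adjusted p = 0.253). Adamts4 was at 15.5, 6.69, 14.3, 3.55 and 14.1 CPM in high-fat tea, with 3 libraries above and 2 libraries at or below the 5.56 to 8.76 CPM of high-fat water (log2 0.65, adjusted p = 0.233). Without the 3 libraries richest in other-organ transcripts Adamts4 was called higher with tea (log2 0.81, adjusted p = 0.0458). The side by side plot of log2 changes shows the values from all 20 libraries for all 14 called genes.

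**Figure D5:**
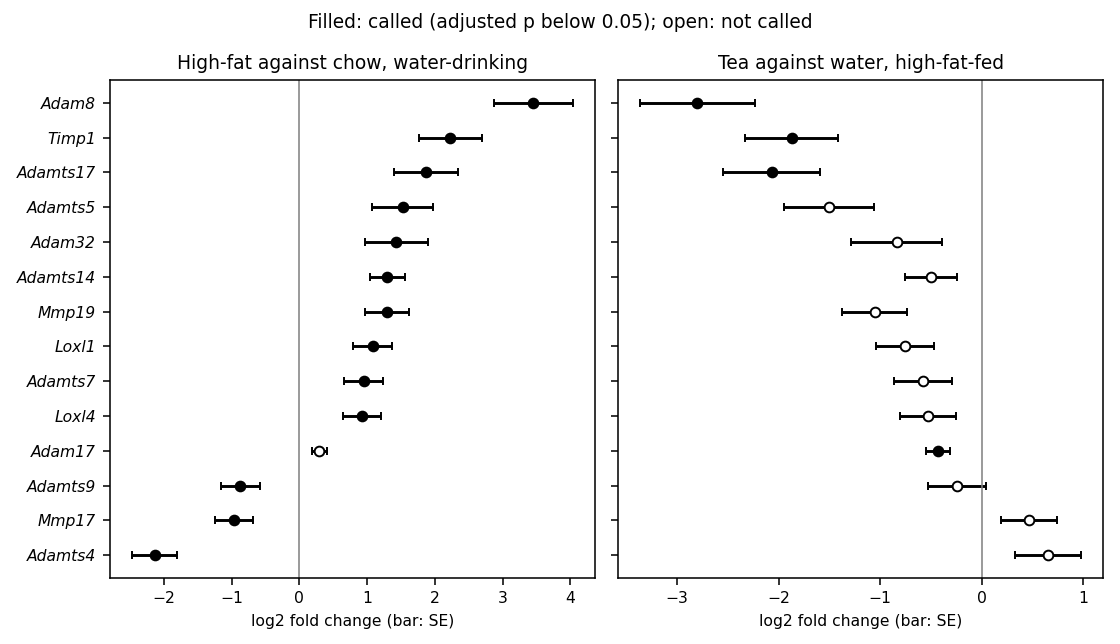
Log2 fold change with its SE for the 14 genes called in at least 1 comparison, for high-fat water against chow water (left) and for high-fat tea against high-fat water (right), filled where called at an adjusted p below 0.05. Both panels use the high-fat water libraries. Adam8 has the largest value in either panel (3.45 and -2.80), and 4 points are filled on the right against 13 on the left.

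Mmp9 had a positive value with tea but was not called by edgeR with all 20 libraries. It was at 19.8, 96.2, 30.2, 10.0 and 18.9 CPM in high-fat tea and 10.7, 13.3, 21.6, 9.75 and 11.5 CPM in high-fat water (log2 1.39, SE 0.47, adjusted p = 0.0904). DESeq2 called Mmp9 higher (log2 1.41, adjusted p = 0.0237). So did edgeR without the 3 libraries richest in other-organ transcripts (log2 1.53, adjusted p = 0.0478) and without high-fat tea 4 (log2 1.63, adjusted p = 0.0461). High-fat tea 2 stood far above the rest and also had 641 CPM over the adrenal cortex list. The part of that library's other-organ transcripts in the Mmp9 values was not tested. Mmp2 had 73.0 ± 38.2 CPM (log2 -0.50, adjusted p = 0.461) and Mmp14 72.5 ± 29.9 CPM (log2 -0.41, adjusted p = 0.407) in high-fat tea. Adamts1 had 92.9 ± 50.8 CPM, with its libraries spread from 37.7 to 148 (log2 -0.14, adjusted p = 0.867). Timp3 reached 1474 CPM in high-fat tea 4, the library with kidney transcripts, against 379 to 868 CPM in the rest of its group (log2 0.41, adjusted p = 0.439). Timp2 was at 184 to 700.0 CPM (log2 -0.21, adjusted p = 0.756) and Timp4 at 34.6 to 166 CPM (log2 0.38, adjusted p = 0.589).

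Among the lysyl oxidases all 5 values were negative with tea and none was called, with a median log2 change of -0.53. Lox had 95.6 ± 59.1 CPM in high-fat tea (log2 -0.21, adjusted p = 0.822), Loxl2 29.3 ± 13.7 CPM (log2 -0.60, adjusted p = 0.242) and Loxl3 9.84 ± 2.495 CPM (log2 -0.28, adjusted p = 0.516). The share of Lox was 40.6%, 40.9%, 41.7%, 37.6% and 57.5% in high-fat tea replicates 1 to 5 and that of Loxl1 36.0%, 39.3%, 38.7%, 40.0% and 27.1%. Both shares overlapped those of high-fat water. Replicate 5 was the one in which Lox led by the widest margin.

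With chow, none of the 67 genes was called for tea by the edgeR quasi-likelihood test (0.0235% of all genes were called, 0.0188% higher and 0.00469% lower), while 8 had an unadjusted p below 0.05 (11.9%, beside 12.4% of all genes). Only for Adamtsl4, named after its values were seen, was there no overlap between these groups (1 of 67, 1.49%, beside 2.56% of all genes), with 13.1 to 21.4 CPM in chow water and 6.40 to 12.0 CPM in chow tea (log2 -0.81, adjusted p = 0.287). DESeq2 called 1 of them, Adamts19 (log2 -4.80, adjusted p = 0.0323), named here after its value was seen, and limma voom called 0. Over all 21306 genes DESeq2 called 260 and limma voom 6. Adamts19 was close to the limit of detection, with 0 to 14 reads per chow water library and 0 to 2 per chow tea library. Adam8 was at 5.63, 5.97, 4.52, 4.44 and 2.86 CPM in chow tea (log2 -0.49, adjusted p = 0.773), Timp1 at 2.53, 1.57, 1.51, 1.03 and 0.941 CPM (log2 0.60, adjusted p = 0.636) and Adamts17 at 0.140, 0.195, 0.476, 0.162 and 0.108 CPM (log2 -1.16, adjusted p = 0.327). All 3 overlapped the chow water libraries. Adamts14 was at 3.10, 5.34, 4.62, 5.90 and 4.64 CPM, with 4 libraries above all of chow water (log2 0.78, adjusted p = 0.24), and Adam17 at 44.6, 47.5, 51.6, 46.5 and 51.4 CPM (log2 -0.06, adjusted p = 0.897). The share of Lox in lysyl oxidase transcripts was 52.9% to 66.9% in chow tea, close to chow water.

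Between the tea-drinking groups, edgeR also called none of the 67 genes for the diet (0.178% of all genes were called, 0.0375% higher and 0.141% lower). An unadjusted p below 0.05 was seen for 9 genes (13.4%, beside 16.3% of all genes), limma voom called 0, and DESeq2 called 3, namely Adamts4, Adam12 and Adamtsl4, the last 2 named after their values were seen. Over all 21306 genes limma voom called 73 and DESeq2 935. Adamts4 was at 26.4, 26.7, 20.3, 28.3 and 23.0 CPM in chow tea and 15.5, 6.69, 14.3, 3.55 and 14.1 CPM in high-fat tea. It was the 1 gene of the 67 whose libraries did not overlap (1.49%, beside 2.77% of all genes), and the log2 change was -1.20 (SE 0.33, adjusted p = 0.117 by edgeR, 0.0132 by DESeq2). Adam8 (log2 1.15, adjusted p = 0.299), Adamts17 (log2 0.96, adjusted p = 0.324), Adamts5 (log2 0.19, adjusted p = 0.876) and Mmp19 (log2 -0.06, adjusted p = 0.947) overlapped between these groups. Timp1 had a log2 change of -0.24 (adjusted p = 0.843) and Timp3 of 0.81 (adjusted p = 0.206).

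Whether tea acted differently under the 2 diets was tested by the interaction, in which edgeR called none of the 67 genes (0.0657% of all genes were called, 0.0329% positive and 0.0329% negative). Here 13 genes had an unadjusted p below 0.05 (19.4%, beside 15% of all genes), limma voom called 0 and DESeq2 called 4, namely Adam8, Adam12, Adamts14 and Timp1. Over all 21306 genes limma voom called 6 and DESeq2 692. The edgeR interaction was -2.47 for Timp1 (SE 0.64, adjusted p = 0.116), -1.28 for Adamts14 (SE 0.36, adjusted p = 0.127) and -2.31 for Adam8 (SE 0.75, adjusted p = 0.156). Without high-fat tea 5 that of Adam8 was -3.42 (adjusted p = 0.00569). For Adamts17 it was -0.91 (SE 0.67, adjusted p = 0.565) and for Adam17 -0.37 (SE 0.16, adjusted p = 0.288). The changes with tea under the high-fat diet are therefore not shown by edgeR to differ from those with chow.

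Genes that work with these enzymes were described from 6 lists, each by the genes that passed the same test. The shares called are to be read beside the 8.06% higher and 7.11% lower of all genes for diet in water, and the 2.06% higher and 2.3% lower for tea under the high-fat diet. Of 18 genes for procollagen processing and cross-linking partners, 8 rose with the diet and 0 fell, with a median log2 change of 0.77. Among them Serpinh1, the collagen chaperone, rose from 190.1 ± 59.4 to 549 ± 104 CPM (log2 change 1.53 with SE 0.31, adjusted p = 0.00404), Colgalt1, which adds galactose to collagen, from 71.4 ± 8.10 to 121 ± 28.0 CPM (log2 change 0.76 with SE 0.15, adjusted p = 0.00352), and Tll1, a procollagen C-proteinase, from 2.74 ± 0.369 to 5.87 ± 0.777 CPM (log2 change 1.10 with SE 0.21, adjusted p = 0.00268). With tea under the high-fat diet 2 of the 18 fell and 0 rose. These were Serpinh1, at 193 ± 93.5 CPM (log2 change -1.51 with SE 0.31, adjusted p = 0.0144), and Colgalt1, at 79.3 ± 16.1 CPM (log2 change -0.61 with SE 0.15, adjusted p = 0.0289). The latter call ended without high-fat water 1 or 2 or high-fat tea 2 or 3 (adjusted p up to 0.0916).

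Of 12 cysteine and serine proteases that cut matrix, 6 rose with the diet and 0 fell, with a median log2 change of 0.84. Ctss, cathepsin S of antigen-presenting cells, rose from 70.2 ± 16.5 to 296 ± 139 CPM (log2 change 2.08 with SE 0.35, adjusted p = 0.00141) and fell to 82.2 ± 44.3 CPM with tea (log2 change -1.85 with SE 0.35, adjusted p = 0.0107). Ctsk, a collagen-cutting cathepsin, rose from 25.6 ± 13.3 to 82.9 ± 43.5 CPM (log2 change 1.70 with SE 0.47, adjusted p = 0.0231), a call lost without chow water 2 or 4 or high-fat water 1 (adjusted p up to 0.0803). Ctsz rose by 0.64 on the log2 scale (SE 0.17, adjusted p = 0.0196), a call lost without chow water 1 or high-fat water 1 (adjusted p up to 0.0645). No other gene of this list was called for tea.

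Of the 10 tested hyalectans and small proteoglycans, which include substrates of the Adamts enzymes, 3 rose with the diet and 0 fell. Ncan, the proteoglycan neurocan, rose from 2.14 ± 1.51 to 15.9 ± 4.59 CPM (log2 change 2.89 with SE 0.67, adjusted p = 0.00913), and Aspn, asporin, from 20.4 ± 2.99 to 46.6 ± 9.61 CPM (log2 change 1.19 with SE 0.29, adjusted p = 0.0121). The third, Bcan, rested on high-fat water 4, without which its log2 change went from 5.57 to -0.14 (adjusted p = 0.949), and its call also ended without any 1 of the 5 chow water libraries (adjusted p up to 0.0948). Ncan and Aspn fell with tea, by 2.67 (adjusted p = 0.0325) and 1.04 (adjusted p = 0.0486) on the log2 scale. Those calls ended in 5 and 8 of 10 fits without 1 library (adjusted p up to 0.0816 and 0.114), kept for Aspn only without high-fat water 4 or high-fat tea 5 and for Ncan without high-fat water 3, 4 or 5 or high-fat tea 1 or 5.

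Of 17 elastic fibre genes 3 rose with the diet (Ltbp3, Emilin1 and Efemp2, by log2 0.93, 0.47 and 0.73), and 0 were called for tea. Each of these calls rested on several libraries. That of Ltbp3 ended without chow water 1, 2 or 4 or high-fat water 1 or 2 (adjusted p up to 0.0661). That of Emilin1 ended without chow water 2 or 3 or high-fat water 1 or 4 (adjusted p up to 0.0836), and that of Efemp2 in 7 of 10 fits, being kept without chow water 5 or high-fat water 2 or 5 (adjusted p up to 0.132). Of 13 genes of the plasminogen system, 2 rose and 1 fell with the diet. Hgf, a growth factor related to plasminogen, rose from 2.79 ± 0.276 to 7.52 ± 1.69 CPM (log2 change 1.43 with SE 0.23, adjusted p = 0.00101) and fell to 3.91 ± 1.18 CPM with tea (log2 change -0.94 with SE 0.23, adjusted p = 0.0285), the latter call being lost without high-fat water 1, 2 or 4 or high-fat tea 1 or 3 (adjusted p up to 0.0925). Serpine2, a protease inhibitor, rose from 41.3 ± 14.3 to 93.5 ± 23.8 CPM (log2 change 1.18 with SE 0.30, adjusted p = 0.015). The Serpine2 call ended without the 9 libraries with other-organ transcripts (log2 1.08, adjusted p = 0.113). Hgfac, the one that fell, had 11.4 ± 24.4 CPM in chow water, and its log2 change went from -5.48 to -1.05 (adjusted p = 0.539) without chow water 1, and the call also ended without any 1 of the 5 high-fat water libraries (adjusted p up to 0.0819). Of 18 other protease regulators only Tspan17, a tetraspanin that binds Adam10, was called, rising from 18.5 ± 7.49 to 64.9 ± 24.9 CPM (log2 change 1.81 with SE 0.33, adjusted p = 0.00239) and falling to 24.2 ± 13.4 CPM with tea (log2 change -1.43 with SE 0.33, adjusted p = 0.0233), where the call ended without high-fat water 1 or 2 or high-fat tea 2 or 3 (adjusted p up to 0.0766). The calls for tea of Serpinh1, Colgalt1, Ctss, Ncan, Aspn, Hgf and Tspan17 all ended when only the high-fat groups entered the fit (adjusted p of 0.0699 for Serpinh1 and for Ctss) and without the 9 libraries with other-organ transcripts (0.15 and 0.172). No gene of the 6 lists was called by edgeR in the other 3 comparisons.

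The fibroblast and progenitor markers, whose cells make much of the matrix, summed to 1717 to 4138 CPM in chow water, 2430 to 4950 in high-fat water and 1395 to 3519 in high-fat tea, over 11 of 11 genes with none at 0. None of the 11 was called in the diet comparison in water or for tea under the high-fat diet. High-fat water 1 and high-fat tea 5 had the highest sums of their groups, and they were also highest of their groups for 27 and 25 of the 67 genes. The part of fibroblast content in these values was not tested.

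The remaining 22 genes did not pass the filter on low counts and are given by their reads. For 10 of them, 8 from the Adam family and 2 from the Mmp family, no read was counted in any of the 20 libraries, and 9 had 1 to 99 reads in all. The other 3 were Adamts13 with 113 reads, Mmp10 with 510 and Mmp7 with 1175. Chow water 1, the library with pancreas transcripts, held 98.7% of the Mmp7 reads and 96.3% of the Mmp10 reads.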

How the data were processed

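RNA of white adipose tissue from 20 mice was sequenced as 1 library each. The authors deposited whole-number read counts per gene, not normalized. The tools listed in the submitters' processing notes are HISAT2 (version 2.2.1), featureCounts (2.0.6) and fastp (0.23.2). The annotation named in the file headers was GENCODE for GRCm39, whereas the notes name mm10, and the settings of the aligner were not given in the sources used here. Per the file headers, pairs were not counted as fragments, so most fragments entered as 2 reads (68.1% to 72.2% of low counts are even), and no strand option was set. Reads of overlapping genes on opposite strands therefore cannot be told apart. Of the 67 tested genes, 21 overlap another gene.

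Libraries held 53047057 to 93314761 reads in genes. edgeR 4.0.16 (R 4.3.3) was run on all 20 libraries with filterByExpr (minimum count 10, total 15, smallest group 5), leaving 21306 genes, TMM scaling and the quasi-likelihood test. All adjusted p-values are Benjamini-Hochberg values over these genes, a call is an adjusted p below 0.05, and values without a named tool come from this test. RPKM used exonic length. The SE of a log2 change is its absolute value divided by the square root of the F statistic of the quasi-likelihood test. Alternatives were RLE scaling, other filters, limma voom (limma 3.58.1), DESeq2 1.42.0, a replicate block, fits of 2 groups, and left-out libraries. The scripts were tested on simulated data. Of 40 within-group pairs none agreed within sampling noise (lowest chi-square per gene 61.6).

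The genes, gene lists and tests were chosen with earlier results of these data known. Statistics are given for each gene of the set called in a comparison and for 15 fixed by name, and for up to 3 called genes of each related list, and genes outside this rule are marked as named after their values were seen. Promoter sequences are from RefSeq (GRCm38.p6), which matched 54 of the 89 genes.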

Additional observations from a re-analysis of the deposited data

Results flagged for a closer look

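In 25 named genes and 4 groups, that is 100 groups of 5 libraries, 10 had a library far from the other 4 by Dixon's criterion. For independent, normally distributed values chance meets it in about 1 in 20 groups. CPM values need not be normal, and the 100 groups share the same 20 libraries, so the count of 10 cannot be set against that rate. Adam8 had a library far from the other 4 in 3 groups. It was highest at 10.93 CPM in chow water replicate 3 (next 6.202), at 141.2 CPM in high-fat water replicate 1 (next 70.12) and at 32.59 CPM in high-fat tea replicate 5 (next 6.87). High-fat water replicate 1 was also far above its group for Adamts5, at 578.6 CPM (next 281.6), and for Lox, at 222.9 CPM (next 101.9), and far below it for Timp3, at 341.9 CPM (next 612.9).

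Adam32 was highest in high-fat water replicate 4, at 0.6585 CPM (next 0.257), and Adamts17 in chow tea replicate 3, at 0.4764 CPM (next 0.1946). Mmp9 reached 96.19 CPM in high-fat tea replicate 2 (next 30.22). Loxl3 was lowest in high-fat tea replicate 4, at 5.464 CPM (next 10.25).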

How the results depend on the processing

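For diet in water, 13 of the 67 genes were called. The count was 8 of 79 with no filter on low counts and 6 of 68 without the 9 libraries with other-organ transcripts. It was 6 to 15 of 67 or 68 when 1 library was left out. Over all genes the counts, in the same order, were 3232 of 21306, 2164 of 37726, 2052 of 22311, and 1890 to 3445 of 21691 to 21794. For tea under the high-fat diet 4 of the 67 were called, all lower. The count was 2 of 79 with no filter, 9 of 67 with DESeq2 (2 higher) and 7 of 67 without 3 libraries (2 higher). It was 0 of 68 without 9 libraries and 0 of 65 when only the 2 groups entered the fit. When 1 library was left out it was 1 to 7 of 67 or 68. Over all genes they were 928 of 21306, 408 of 37726, 2444 of 21306, 1602 of 21409, 13 of 22311, 21 of 19709, and 212 to 2017 of 21680 to 21827. For tea with chow the count in the set was 0, and 1 with DESeq2, beside 5 and 260 over all genes. For diet in tea the count in the set was 0, and 3 with DESeq2, 2 without 3 libraries and 0 to 1 without 1 library. Over all genes these counts were 38, 935, 292 and 10 to 390. For the interaction the count in the set was 0, and 4 with DESeq2 and 0 to 1 without 1 library, beside 14, 692 and 3 to 111 over all genes. The cause of these differences was not tested. For the 25 named genes, 2479 values under an alternative kept their side of the threshold, 24 gained a call and 92 lost one. Most of these values belong to genes and comparisons without a call, which could not lose one. Of the 13 calls for diet in water 6 held in every fit without 1 library, and of the 4 for tea under the high-fat diet 1 did. Outside the 25 named genes, Mmp13 for diet in water went from log2 -0.08 to 3.70 without chow water 1 (adjusted p = 0.0428) and to 2.91 without 3 libraries (adjusted p = 0.0278).

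Same-numbered libraries did not visibly deviate together (median correlation 0.0133 over 30 pairs, 9 above 0.1, and 4 of 20 libraries closest to their own number). Pairs with different numbers had a median of -0.0257 (120 pairs, 37 above 0.1). No pairing by number was seen, though these correlations cannot exclude it. With the replicate block 11 genes were called for diet in water and 2 for tea under the high-fat diet, where Adam17 (adjusted p = 0.0621), Adamts17 (0.0539) and Timp1 (0.0852) were not called and Adamts5 was (0.0450). Over all 21306 genes 2611 and 632 were called with the block.

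Depth limits the scarcest genes. Adam32 had 4 to 69 reads per library and Adamts17 8 to 282, and Adamts19, the scarcest of the 67 genes (0.00886 RPKM), had 0 to 24. Counting pairs as 2 reads makes these totals larger than the number of fragments.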

Other observations

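The AP-1 letters TGANTCA, absent from the 4 printed windows, were found in 11 of the 58 promoter windows of the Mmp, Adam, Adamts, Adamtsl, Timp and lysyl oxidase genes (19%), beside 6.75% of all 32851 windows. Of the 11 genes concerned, only 3 had enough reads to be tested, namely Adam19, Mmp13 and Mmp3, out of 38 tested genes with a window. The higher share in the set thus came mostly from genes with too few reads to be tested. None of these 3 tested genes was called by edgeR with all 20 libraries. Mmp13 was called higher for diet in water without chow water 1 (log2 3.70, adjusted p = 0.0428) and without the 3 libraries richest in other-organ transcripts (log2 2.91, adjusted p = 0.0278). The TATA letters TATAAA were found in 22.4% of the 58 windows, beside 12.4% of all windows.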
